A study of Homo sapiens with 20 samples.

Results

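Complement is described here through 8 of its genes in a human intestinal epithelial cell line exposed to probiotic bacteria, to their culture supernatants or to the supernatant of a pathogenic Escherichia coli. The genes are C3, CFB, C5, C4BPB, CFI, CD55, CD46 and CD59, which are 8 of the 19775 genes that the arrays could name. Their probe sets were found by symbol in the platform annotation, but the genes were chosen with earlier results of these data known. Among the 54675 probe sets, 18 carried 1 of these symbols. The probe sets of 7 genes reached the minimum mean signal needed for a test, and CFI did not.

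Complement is a cascade of plasma and cell-surface proteins that marks microbes for uptake, recruits leukocytes and punctures membranes. Its routes meet at C3, whose cleaved fragment C3b binds to surfaces, and factor B (CFB) joins C3b to form the enzyme of the alternative route that cleaves more C3. C5 starts the membrane attack complex. Host cells hold the cascade back with the surface proteins CD55, CD46 and CD59, and with the soluble proteins factor I (CFI) and C4b-binding protein, whose beta chain is encoded by C4BPB. Most complement protein in blood comes from the liver, and intestinal epithelium is a known local source of C3 and factor B.

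The cells were Caco-2, an established line from a human colon carcinoma whose cells come to resemble enterocytes once confluent, here after 5 days on inserts. In the probiotic set of 14 arrays, the live bacterium was Lactobacillus acidophilus NCFM, Lactobacillus salivarius Ls-33 or Bifidobacterium animalis subspecies lactis (B. lactis 420), given for 8 h on the apical side, with 20 to 100 bacteria for each Caco-2 cell. Other cells received 10% by volume of the sterile-filtered supernatant of the same strains, grown in MRS broth with glucose, for 24 h, and controls received medium alone for 8 h. Each of these 7 groups had 2 arrays. The E. coli set has 6 arrays, from cells that received 5% supernatant of enterohaemorrhagic E. coli O157:H7, grown in LB broth with glucose, or medium alone, both for 24 h and with 3 arrays each. No group received sterile broth, so broth and bacterial products cannot be told apart. The probiotic supernatants differ from their medium in time as well as in treatment, and these also cannot be told apart. The 2 arrays of a probiotic group are described as duplicates without naming separate cultures, so p-values in that set may reflect array-to-array spread alone.

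All values are log2 probe-set signals made by the authors with robust multi-array averaging (RMA), and a change is a difference between group means on that scale. Median signal lay between 2.66 and 2.72 on all 20 arrays, and the 13 pairs of arrays within groups had correlations of 0.994 to 0.997 over probe sets. The beta-actin 3' control signal exceeded the 5' one, a gap that reflects RNA quality and labelling, by 1.08 to 1.54 in co-cultures, 1.02 to 1.11 with probiotic supernatants and 0.80 to 0.88 in 8 h medium. The gap was 2.12 to 2.22 with E. coli supernatant and 1.90 to 2.17 in 24 h medium, and its part in the results below was not tested. All 12 enterocyte markers had a mean above the minimum signal, from APOA1 (1.88 to 4.12, so under it on some arrays) and LGALS4 (2.91 to 4.55) up to VIL1 (11.1 to 12.5) and FABP1 (12.3 to 13.7). Of 8 leukocyte markers with a probe set, PTPRC (at most 2.35), CD3E, MS4A1 and TYROBP had means under the minimum. The other 4 had means over it: CD14 at 3.71 to 4.86, ITGAM at 3.39 to 5.28, CSF1R at 3.28 to 5.51 and LYZ at 5.98 to 11.6. Of 7 stromal markers 5 had means over the minimum. COL1A1 and LUM were high, at 10.2 to 11.4 and 10.97 to 11.98. COL3A1 was at 5.25 to 7.06, PDGFRB at 2.2 to 3.2 and THY1 at 2.62 to 3.26. DCN and COL1A2 had means under the minimum. Of the liver markers, TTR (11.8 to 12.9), APOB (9.56 to 11.6) and ALB (4.06 to 10.7) had means over it. CYP2E1, CYP3A4, TAT and CPS1 had means under it. The endothelial marker PECAM1 was at 7.26 to 9.26 and TEK at 2.54 to 3.52, while CDH5, VWF and KDR had means under the minimum.

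Promoters are shown for CFB, which moved furthest apart between strains among the genes with a sequence, and for the surface regulators CD55 and CD46, which moved in opposite directions with E. coli supernatant. The RefSeq promoter table of build GRCh38.p14 held 14 windows for 7 of the 8 genes, each from 250 bases before to 50 after a gene start. C3 had none. RefSeq places C4BPB, CD55 and CD46 on chromosome 1, CFB on chromosome 6, CFI on 4, C5 on 9 and CD59 on 11. The 250 bases before the start are printed 5' to 3' on the gene's strand, from chr6:31945845-31946094 (+) for CFB, chr1:207321428-207321677 (+) for CD55 and chr1:207751788-207752037 (+) for CD46, where CD46 has 1 other window. Capitals mark matches of the 10-letter kappaB consensus, named for the NF-kappaB factors, and of TTCNNNGAA, a motif of the STAT factors.
CFB: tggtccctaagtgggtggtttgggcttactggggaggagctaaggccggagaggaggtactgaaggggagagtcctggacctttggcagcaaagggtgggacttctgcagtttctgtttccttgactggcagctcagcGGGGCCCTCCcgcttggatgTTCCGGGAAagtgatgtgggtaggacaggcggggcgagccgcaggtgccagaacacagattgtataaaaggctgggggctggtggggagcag
CD55: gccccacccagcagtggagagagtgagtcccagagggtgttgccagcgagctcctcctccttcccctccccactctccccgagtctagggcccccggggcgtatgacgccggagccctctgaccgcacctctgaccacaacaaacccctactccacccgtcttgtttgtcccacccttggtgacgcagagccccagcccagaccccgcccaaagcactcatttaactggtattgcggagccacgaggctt
CD46: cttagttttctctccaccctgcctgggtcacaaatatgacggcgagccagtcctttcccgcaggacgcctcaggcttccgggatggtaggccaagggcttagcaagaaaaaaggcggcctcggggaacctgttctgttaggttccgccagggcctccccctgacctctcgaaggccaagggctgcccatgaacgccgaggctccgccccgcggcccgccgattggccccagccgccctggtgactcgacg
Both strands were searched for these motifs and for TTNNGNAA, a core recognised by C/EBP factors, and overlapping matches were kept. In CFB the kappaB match began at position -112 from the gene start and the TTCNNNGAA match at position -92, while the windows of CD55 and CD46 held no match of the 3 motifs. TTCNNNGAA was also found in windows of C4BPB and CD59, so it was not particular to CFB. TTNNGNAA was found in windows of CFI, C4BPB, C5 and CD59 and not in CFB, and the kappaB consensus in CFB only. Of 35116 RefSeq promoter windows of the same length, 11.27% held the kappaB consensus, 7.66% TTCNNNGAA and 36.84% TTNNGNAA. A match is a description of letters and not a bound site.

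C3 was high in cells with live B. lactis 420 and Ls-33 and stayed near the medium level with live NCFM. Its signal (probe set 217767_at) was 7.19 and 7.41 with live B. lactis 420, 8.14 and 8.10 with live Ls-33, and 4.37 and 3.86 with live NCFM, against 3.61 and 4.11 in 8 h medium. The arrays of B. lactis 420 and Ls-33 lay far above both controls, whereas those of NCFM overlapped with them. C3 rose 19.1-fold with live Ls-33 (log2 change 4.26, SE 0.21, limma adjusted p = 4.45e-12) and 10.9-fold with live B. lactis 420 (3.44, SE 0.21, adjusted p = 1.41e-10). With live NCFM the change was 0.26 with a 95% confidence interval of -0.18 to 0.69 (adjusted p = 0.366).

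With the probiotic supernatants C3 stayed low. Its signal was 3.68 and 3.91 with NCFM supernatant, 3.83 and 4.20 with B. lactis 420 supernatant and 4.73 and 4.69 with Ls-33 supernatant, against the same medium arrays. Both Ls-33 arrays lay above both controls, and the arrays of the other strains overlapped with the controls. Ls-33 supernatant passed the test with a 1.80-fold rise (log2 change 0.85, SE 0.21, adjusted p = 0.00816). When each array was left out in turn that change ranged from 0.60 to 1.10 and its adjusted p from 0.00756 to 0.121, and the call was lost without medium array 1 (0.60) or either Ls-33 array (0.83 and 0.87). The changes with NCFM and B. lactis 420 supernatants were -0.06 (adjusted p = 0.894) and 0.16 (adjusted p = 0.662).

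C3 also rose with E. coli supernatant. Its signal was 5.85, 5.87 and 5.59 with E. coli supernatant, against 4.89, 4.38 and 4.44 in 24 h medium, and all treated arrays lay above all controls. The rise was 2.30-fold (log2 change 1.20, SE 0.17, adjusted p = 6.25e-05). In this set both groups were taken at 24 h.

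Factor B followed C3 in part, but fell with live NCFM. The signal of CFB (202357_s_at) was 10.08 and 10.22 with live Ls-33, 8.99 and 8.99 with live B. lactis 420, and 8.17 and 8.10 with live NCFM, against 8.78 and 8.74 in 8 h medium. No co-culture overlapped with medium or with another co-culture. CFB rose 2.61-fold with live Ls-33 (log2 change 1.39, SE 0.08, adjusted p = 3.05e-11) and fell with live NCFM, where it was 1.55-fold lower (-0.63, SE 0.08, adjusted p = 2.97e-06). The rise with live B. lactis 420 was 1.17-fold (0.23, SE 0.08, adjusted p = 0.0276). It missed the threshold without a filter on low signal (adjusted p = 0.0586) and whenever 1 array of either group was left out (0.21 to 0.25, adjusted p = 0.0652 to 0.123).

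Supernatants of the probiotic strains left CFB between 8.60 and 8.69, with changes of -0.15, -0.11 and -0.13 for NCFM, B. lactis 420 and Ls-33, none of which passed the test. These arrays lay just below both controls. CFB was lower with E. coli supernatant. The signal was 7.55, 7.60 and 7.61 with E. coli supernatant, against 8.96, 8.94 and 9.01 in 24 h medium, with no overlap. CFB was thus 2.61-fold lower (log2 change -1.38, SE 0.08, adjusted p = 5.03e-08) in the same cells in which C3 rose. The other CFB probe set, 211920_at, lay between 2.81 and 3.73 on all arrays, near the minimum signal, and passed no test against medium.

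**Figure D1:**
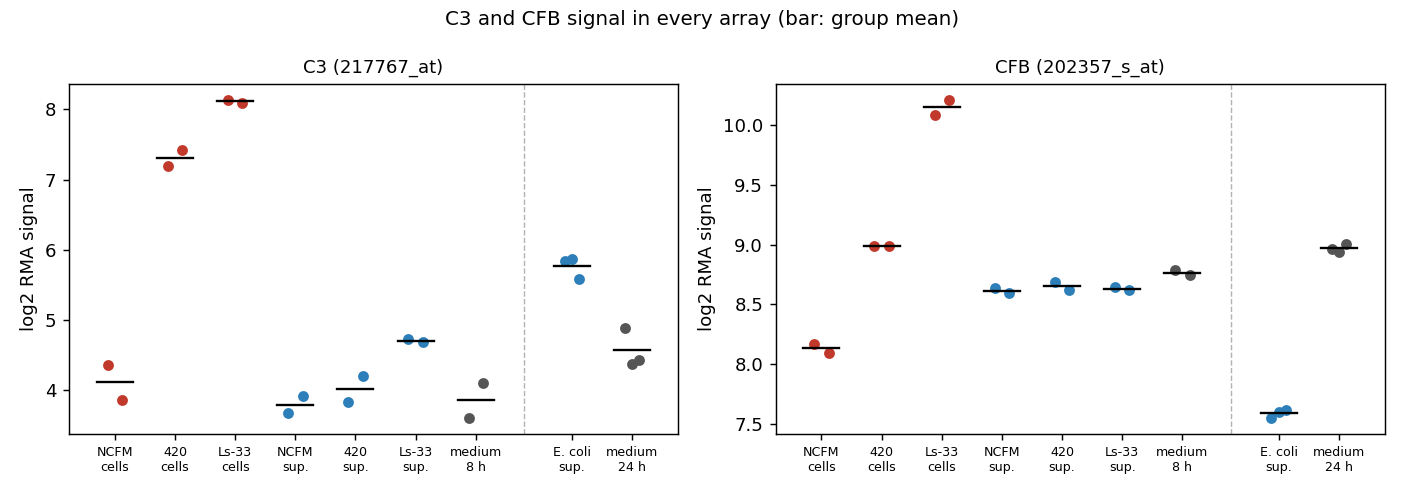
Log2 RMA signal of C3 and CFB on each array, by group, with a vertical line between the array sets. Points are single arrays and horizontal bars group means (n = 2 in the probiotic set, n = 3 in the E. coli set). C3 reaches 8.14 with live Ls-33 and 7.41 with live B. lactis 420. CFB lies highest with live Ls-33, at 10.22, and lowest with E. coli supernatant, at 7.55.

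The strains were then compared with each other, since a call for one strain and not for another shows no difference between them. A moderated F-test over the 3 co-cultures found that strains differed for 5 of the 7 genes, beside 13.7% of all 11865 genes tested. C3 (range of group means 4.002, adjusted p = 8.02e-11) and CFB (range 2.02, adjusted p = 1.67e-12) stood furthest apart. Pairwise contrasts were added after the values were seen. C3 was higher with live Ls-33 than with live NCFM (log2 difference 4.002, adjusted p = 3.82e-11), and CFB 4.05-fold higher (2.02, adjusted p = 3.26e-13). With live B. lactis 420, C3 was 9.11-fold (3.19, adjusted p = 4.34e-09) and CFB 1.81-fold (0.86, adjusted p = 5.54e-07) higher than with live NCFM. CFB was also 2.23-fold higher with live Ls-33 than with live B. lactis 420 (1.16, adjusted p = 2.66e-08). For C3 that pair differed 1.76-fold (adjusted p = 0.0277), and the call was lost when any of the 4 arrays was left out (0.70 to 0.93, adjusted p up to 0.22). Of all genes, 14.7% differed between live Ls-33 and live NCFM, 5.58% between live Ls-33 and live B. lactis 420 and 3.03% between live B. lactis 420 and live NCFM, beside 2, 4 and 3 of the 7.

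The remaining strain differences among co-cultures were small. The F-test passed narrowly for C4BPB (range of means 0.49, adjusted p = 0.0433), CD55 (0.29, adjusted p = 0.0449) and CD59 (0.41, adjusted p = 0.0404). The pairs behind these were C4BPB and CD55 between live Ls-33 and live B. lactis 420 (-0.49 and 0.29) and CD59 between live B. lactis 420 and live NCFM (0.41). These values are from the representative probe sets. CD59 probe set 212463_at went the other way, with means of 7.59 with live B. lactis 420 and 7.93 with live NCFM, and the others did not. CD55 probe set 1555950_a_at had close means, 10.34 with live Ls-33 and 10.28 with live B. lactis 420. The calls for C4BPB and CD59 were lost when any of their 4 arrays was left out (C4BPB -0.55 to -0.42, CD59 0.36 to 0.45), and that for CD55 without either B. lactis 420 array (0.27 and 0.31) or the first Ls-33 array (0.19). The F-test did not pass for C5 (adjusted p = 0.997) or CD46 (adjusted p = 0.414). Among the 3 supernatants none of the 7 genes passed, beside 0.0337% of all genes, and C3 had the lowest adjusted p, 0.314. Whether strain differences depended on giving live bacteria or supernatant was tested as an interaction, which passed for C3 (adjusted p = 7.22e-07) and CFB (adjusted p = 1.07e-09), beside 4.4% of all genes. The difference between Ls-33 and NCFM in C3 was 4.002 as co-cultures and 0.91 as supernatants, and in CFB 2.02 and 0.017.

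C5, the component that follows C3, gave wide spreads and few calls. Its signal (205500_at) was 4.92 and 5.26 with live NCFM, 4.76 and 5.47 with live B. lactis 420, and 4.94 and 5.26 with live Ls-33, against 5.76 and 5.67 in 8 h medium. Every co-culture array lay below both controls, by group means of -0.62, -0.60 and -0.61 (SE 0.25), and none of the 3 changes passed the test (adjusted p = 0.0576, 0.0676 and 0.0572). Several other settings put the co-culture changes past the threshold, such as a filter at the 60th percentile for NCFM (adjusted p = 0.0461) and Ls-33 (adjusted p = 0.0456). With Ls-33 supernatant C5 was 4.85 and 4.69 and fell by 0.94 on the log2 scale (SE 0.25, adjusted p = 0.0122). That call was lost without either medium array or without the second Ls-33 array (-0.99 to -0.86, adjusted p up to 0.107). In cells with E. coli supernatant it was 6.24, 6.10 and 5.96, against 6.41, 5.78 and 6.18 in 24 h medium. These groups overlapped, and the change was -0.02 with a 95% confidence interval of -0.40 to 0.35.

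CFI, the protease that cuts C3b and C4b with the help of cofactors such as CD46 and C4b-binding protein, was not measurable above the minimum signal. Its 2 probe sets lay between 1.58 and 2.12 (1555564_a_at) and between 1.27 and 1.64 (203854_at) over all arrays, against minimum mean signals of 2.74 in the probiotic set and 2.78 in the E. coli set. No change in CFI was tested.

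The beta chain of C4b-binding protein, an inhibitor of the classical and lectin routes, was lower with every probiotic supernatant and higher with E. coli supernatant. C4BPB (208209_s_at) was 6.13 and 6.23 with NCFM supernatant, 6.05 and 6.04 with B. lactis 420 supernatant and 6.03 and 6.16 with Ls-33 supernatant, against 7.02 and 7.15 in 8 h medium. None of the supernatant arrays reached the controls. The gene fell 1.87-fold with NCFM (log2 change -0.90, adjusted p = 0.000193), 2.06-fold with B. lactis 420 (-1.04, adjusted p = 4.03e-05) and 1.99-fold with Ls-33 supernatant (-0.99, adjusted p = 4.84e-05, SE 0.13 for each). In medium at 24 h, which belongs to the other array set, the signal was 7.11, 6.98 and 7.22, a level set across array sets that may have been normalized separately.

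C4BPB was also lower with live NCFM and live Ls-33. Its signal was 6.55 and 6.55 with live NCFM, 6.71 and 6.77 with live B. lactis 420 and 6.19 and 6.32 with live Ls-33, again below both 8 h medium arrays. It was 1.44-fold lower with NCFM (log2 change -0.53, adjusted p = 0.00404) and 1.78-fold lower with Ls-33 (-0.83, adjusted p = 5.73e-05). The change with B. lactis 420, -0.34, missed the threshold (adjusted p = 0.0525). In the E. coli set it was 7.59, 7.68 and 7.87 with E. coli supernatant, against 7.11, 6.98 and 7.22 in 24 h medium. All 3 treated arrays lay above the controls, a 1.53-fold rise (log2 change 0.61, SE 0.12, adjusted p = 0.000628).

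C4BPA, which encodes the alpha chain that joins with the beta chain in the same protein and is not one of the 8 genes, was compared because the result turns on both chains. Its signal (205654_at) ranged from 10.4 to 10.6 with live bacteria and from 10.2 to 10.6 with probiotic supernatants, against 11.3 and 11.2 in 8 h medium. It fell in all 6 comparisons with medium, by 0.74 to 0.99 on the log2 scale. With E. coli supernatant C4BPA was 9.55 to 9.59, against 10.6 to 11.1 in 24 h medium. It fell by 1.32 on the log2 scale (adjusted p = 2.5e-07), while C4BPB rose in the same arrays.

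**Figure D2:**
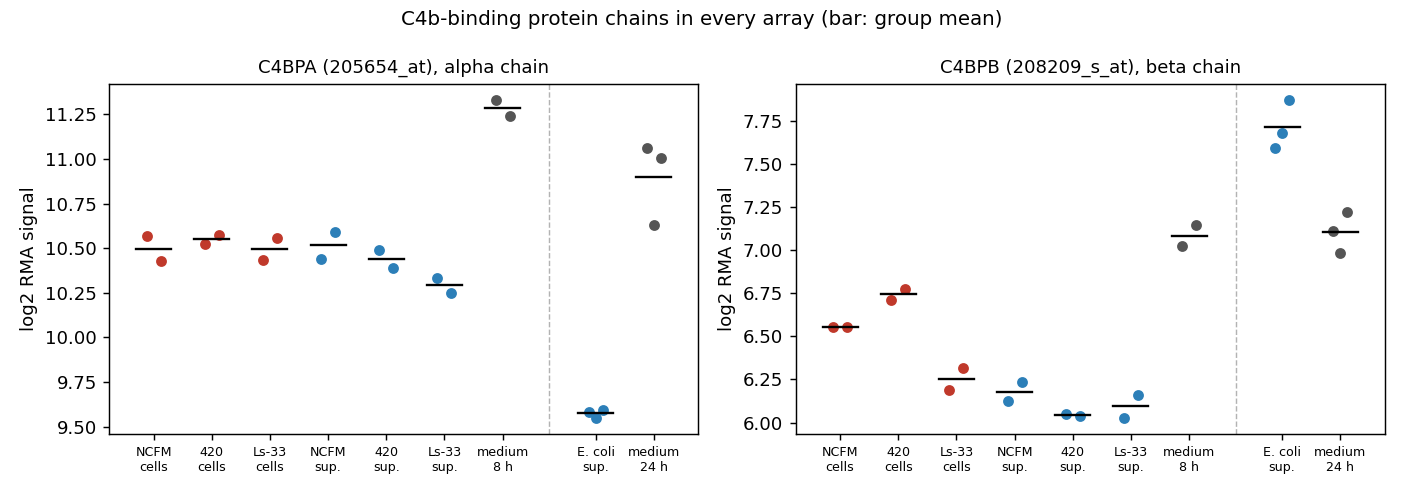
Log2 RMA signal of C4BPB and C4BPA on each array, by group, with a vertical line between the array sets. Points are single arrays and horizontal bars group means (n = 2 in the probiotic set, n = 3 in the E. coli set). Both chains lie below 8 h medium in the 6 probiotic groups. With E. coli supernatant C4BPB lies above 24 h medium, up to 7.87, and C4BPA below it, down to 9.55.

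CD55, or decay-accelerating factor, which breaks up the enzymes that cleave C3, was higher with all live bacteria and with E. coli supernatant. Its representative probe set 201925_s_at was 10.25 and 10.37 with live NCFM, 10.24 and 10.28 with live B. lactis 420 and 10.66 and 10.45 with live Ls-33, against 9.66 and 9.61 in 8 h medium. Every co-culture array lay above the controls. CD55 rose 1.60-fold with live NCFM (log2 change 0.68, adjusted p = 4.55e-06), 1.55-fold with live B. lactis 420 (0.63, adjusted p = 1.05e-05) and 1.90-fold with live Ls-33 (0.92, adjusted p = 5.4e-08, SE 0.09 for each). With E. coli supernatant the signal was 10.69, 10.90 and 10.74, against 9.31, 9.56 and 9.32 in 24 h medium. The groups lay far apart, a 2.61-fold rise (log2 change 1.38, SE 0.08, adjusted p = 4.9e-08).

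CD55 passed the test with 1 of the 3 probiotic supernatants. NCFM and B. lactis 420 supernatants gave changes of 0.09 and 0.04 in 201925_s_at, neither past the threshold. The other CD55 probe sets lay below both controls with these supernatants, by -0.12 and -0.27 with NCFM and by -0.23 and -0.25 with B. lactis 420 (1555950_a_at and 201926_s_at in turn). Of these 4 changes only that of 1555950_a_at with B. lactis 420 supernatant passed (adjusted p = 0.0339), and it was lost whenever 1 array of either group was left out (-0.27 to -0.18, adjusted p = 0.0646 to 0.216). Ls-33 supernatant, at 9.92 and 10.02, passed with a 1.26-fold rise (log2 change 0.34, adjusted p = 0.01), lost without the second medium array (0.31, adjusted p = 0.0792) or the second Ls-33 array (0.28, adjusted p = 0.123). The probe sets 1555950_a_at and 201926_s_at gave changes of smaller size in the same direction with live bacteria. The first rose by 0.28 (live NCFM), 0.38 (live B. lactis 420) and 0.44 (live Ls-33; adjusted p = 0.00248, 0.000196 and 3.66e-05). The second gave 0.20 with NCFM, which did not pass (adjusted p = 0.068), 0.23 with B. lactis 420 (adjusted p = 0.0402, lost whenever 1 array of either group was left out) and 0.38 with Ls-33 (adjusted p = 0.00144). Both rose by 0.74 with E. coli supernatant. For Ls-33 supernatant they gave -0.03 and -0.10, so the rise there rests on 201925_s_at alone.

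CD46, the membrane cofactor that lets factor I cut C3b, fell with E. coli supernatant. Its representative probe set 208783_s_at was 11.93, 11.56 and 11.87 with E. coli supernatant, against 12.54, 12.78 and 12.76 in 24 h medium, without overlap. CD46 was 1.88-fold lower (log2 change -0.91, SE 0.09, adjusted p = 2.52e-06). In the probiotic set the same probe set lay between 12.54 and 12.89 on all 14 arrays, where no co-culture differed from medium (changes -0.06, -0.07 and 0.02). A 1.12-fold rise with Ls-33 supernatant passed (0.16, adjusted p = 0.0363), but not when every probe set was tested on its own (adjusted p = 0.0547), nor without either medium array or the second Ls-33 array (0.085 to 0.17, adjusted p up to 0.431).

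The other CD46 probe sets fell with live bacteria where 208783_s_at did not. The signal of 207549_x_at was 10.36 and 9.88 with live NCFM, 10.46 and 10.40 with live B. lactis 420 and 10.41 and 10.64 with live Ls-33, against 10.93 and 10.93 in 8 h medium. All 6 co-culture arrays lay below the controls, by -0.81, -0.50 and -0.41 (SE 0.10, adjusted p = 9.31e-06, 0.00144 and 0.00652). The call for Ls-33 was lost without its first array (-0.29, adjusted p = 0.119). Probe set 211574_s_at changed by -0.82, -0.58 and -0.52 (SE 0.11, adjusted p = 1.66e-05, 0.000623 and 0.00148). With the probiotic supernatants neither probe set passed. All 3 CD46 probe sets fell with E. coli supernatant, by 1.31 (207549_x_at), 1.51 (211574_s_at) and 0.91 (208783_s_at) on the log2 scale. Over the 14 probiotic arrays 207549_x_at and 211574_s_at followed each other (Pearson r = 0.965) more closely than either followed 208783_s_at (r = 0.495 and 0.506). The suffix _x_at marks a probe set that can cross-hybridise.

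CD59, which blocks the last step of the membrane attack complex, gave changes that differed in sign between its probe sets. The representative 200984_s_at was 7.87 and 7.97 with live NCFM, 8.31 and 8.34 with live B. lactis 420 and 8.26 and 8.12 with live Ls-33, against 8.19 and 8.24 in 8 h medium. Only the NCFM arrays lay below both controls, a 1.22-fold fall (log2 change -0.29, SE 0.11, adjusted p = 0.0455). That call was lost without a filter on low signal (adjusted p = 0.0762) and whenever 1 array of either group was left out (-0.34 to -0.25, adjusted p = 0.0658 to 0.177). The changes with live B. lactis 420 (0.12, 95% confidence interval -0.11 to 0.35) and E. coli supernatant (0.09, -0.11 to 0.29) did not pass.

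Probe set 212463_at of CD59 fell with E. coli supernatant, which gave 7.50, 7.53 and 7.51, against 8.64, 8.32 and 8.46 in 24 h medium (log2 change -0.96, SE 0.11, adjusted p = 5.1e-06). It also fell with live B. lactis 420 (-0.53, adjusted p = 0.00328) and B. lactis 420 supernatant (-0.51, adjusted p = 0.0156). The supernatant call was lost without either medium array or the first supernatant array (-0.55 to -0.44, adjusted p up to 0.123). Probe set 200985_s_at rose with live B. lactis 420 (0.38, adjusted p = 0.00802) and live Ls-33 (0.43, adjusted p = 0.00331), and 200983_x_at with live B. lactis 420 (0.36, adjusted p = 0.00788). Both B. lactis 420 calls depended on single arrays: 200985_s_at lost its call without the first medium array (0.32) or the second B. lactis 420 array (0.31), and 200983_x_at without the second medium array (0.32) or the first B. lactis 420 array (0.23). The fifth probe set, 228748_at, lay between 2.41 and 3.36 and passed no test. No single direction can therefore be given for CD59 with live B. lactis 420.

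**Figure D3:**
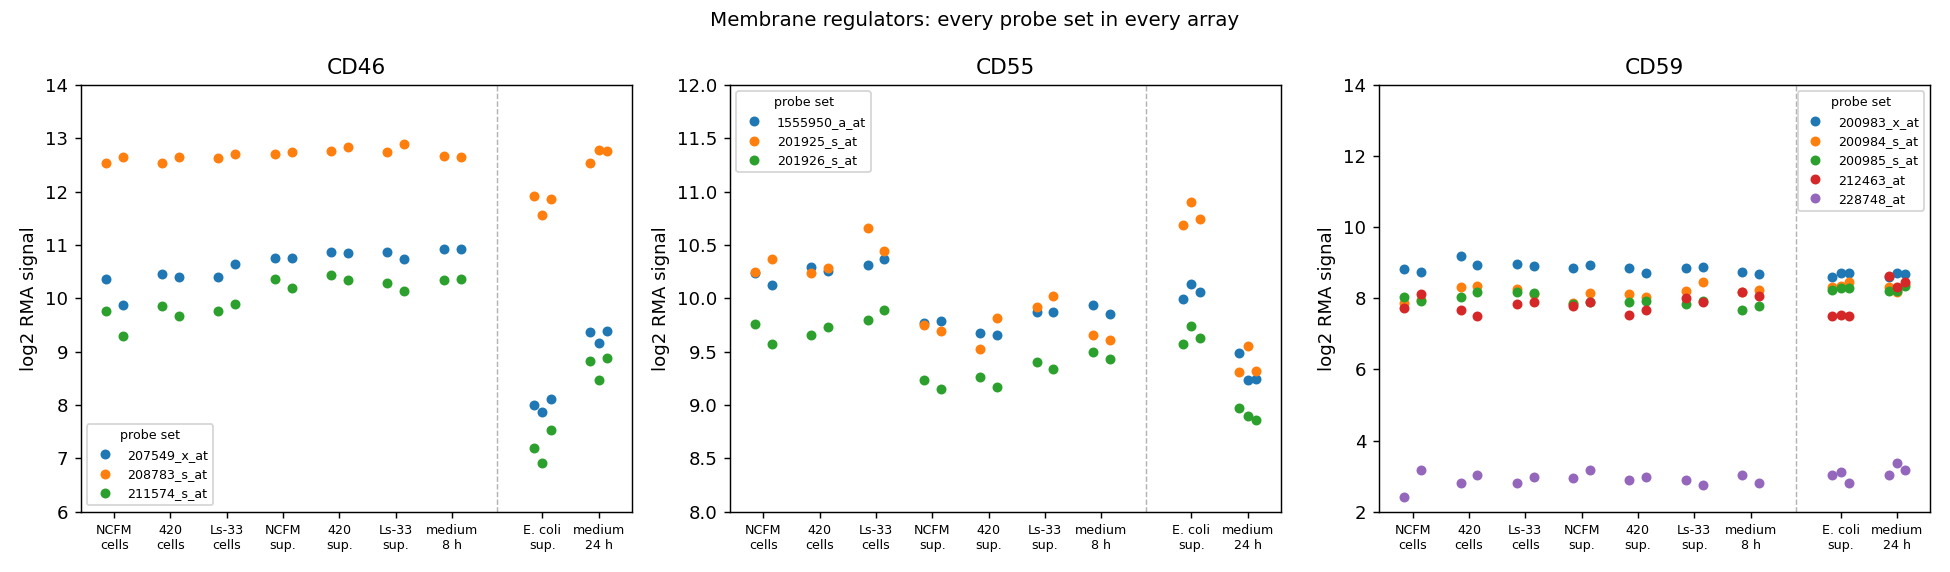
Log2 RMA signal of CD55, CD46 and CD59 on each array, by group, with 1 colour per probe set and a vertical line between the array sets. Points are single arrays (2 per group in the probiotic set and 3 in the E. coli set). The CD55 probe sets lie higher with live bacteria and with E. coli supernatant. All CD46 probe sets lie lower with E. coli supernatant, and 212463_at is the CD59 probe set that falls there, to 7.50.

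Calls over the 7 tested genes were counted beside the share of all genes called in the same comparison, which was large in every co-culture. With live NCFM 4 genes were called (CD55 higher and CFB, C4BPB and CD59 lower), beside 35.3% of all 11865 genes tested. For CD59 this is the direction of the representative probe set, and another probe set went the other way. With live B. lactis 420 there were 3 (C3, CFB and CD55, all higher), again beside 35.3%. With live Ls-33 there were 4 (C3, CFB and CD55 higher, C4BPB lower), beside 38.7%. Calls with supernatants were 1 for NCFM (C4BPB lower, beside 11.3%), 1 for B. lactis 420 (C4BPB lower, beside 15.2%) and 5 for Ls-33, beside 16.6%. These were C3, CD46 and CD55, higher, and C4BPB and C5, lower. Without a trend in the variance model, Ls-33 supernatant kept 2 calls, and leaving out single arrays gave 1 to 4. With E. coli supernatant 5 genes were called (C3, C4BPB and CD55 higher, CFB and CD46 lower), beside 64.1% of all genes. Over the 16 tested probe sets of these genes, 6, 10 and 9 were called with live NCFM, B. lactis 420 and Ls-33, beside 28.4%, 25.8% and 26.8% of 32768 probe sets. For the supernatants of NCFM, B. lactis 420, Ls-33 and E. coli the probe sets called were 1, 3, 4 and 10, beside 5.85%, 7.98%, 8.34% and 52.9%. Median changes of the 7 genes were -0.29, 0.12 and 0.02 with live NCFM, B. lactis 420 and Ls-33, against medians over all genes of -0.01, 0.01 and -0.01. In the same order of supernatants the medians of the 7 genes were -0.15, -0.11, 0.12 and 0.09, against -0.02, -0.04, -0.01 and 0.05 over all genes.

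**Figure D4:**
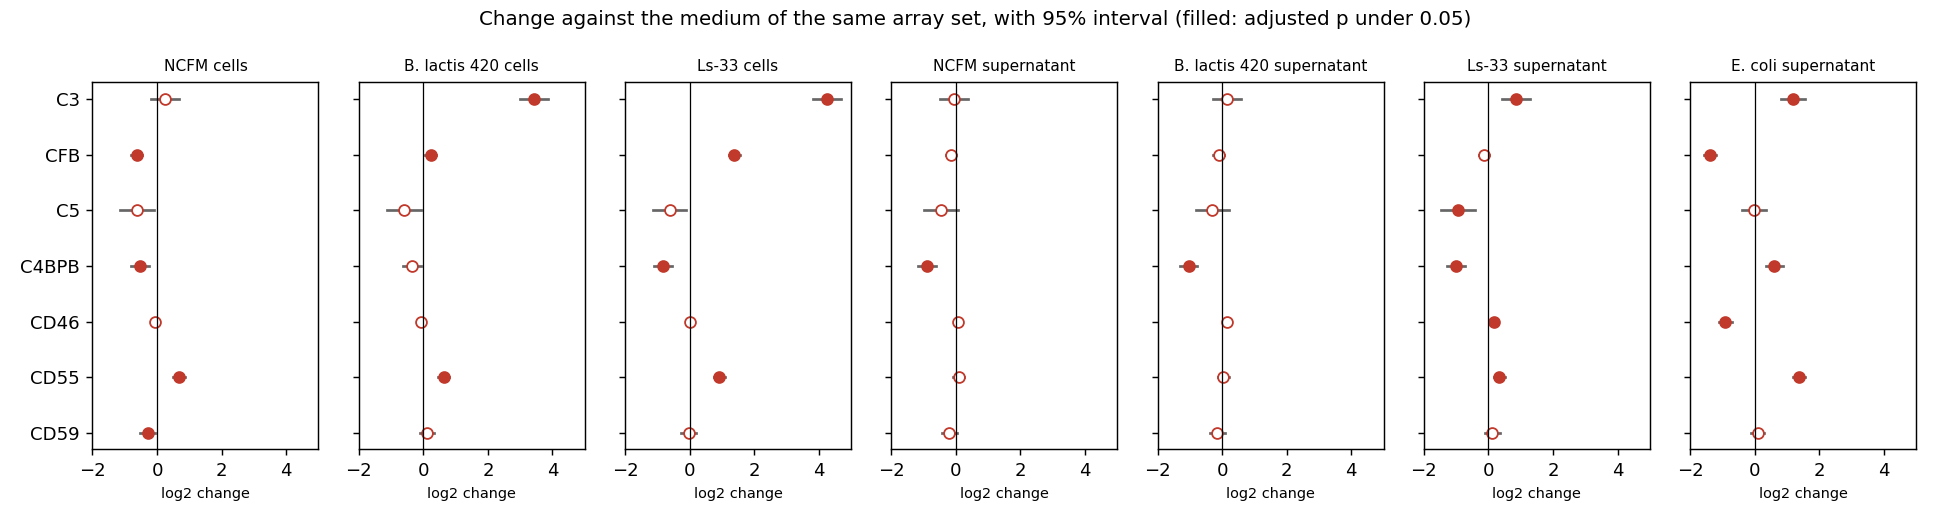
Log2 change against the medium of the same array set for the 7 tested genes in the 7 comparisons, 1 representative probe set per gene. Points are changes, bars 95% confidence intervals from limma, and filled points passed an adjusted p under 0.05. C3 with live Ls-33 (4.26) and live B. lactis 420 (3.44) lies furthest from 0.

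Live bacteria and the supernatant of the same strain were also set against each other, at 8 h and 24 h, so format and time cannot be told apart. C3 was 9.75-fold higher with live B. lactis 420 than with its supernatant (log2 difference 3.29, adjusted p = 2.75e-10) and 10.6-fold higher with live Ls-33 than with its supernatant (3.41, adjusted p = 1.42e-10). For NCFM the difference was 0.32 (adjusted p = 0.248). CFB was higher with live Ls-33 (1.52, adjusted p = 7.48e-12) and live B. lactis 420 (0.34, adjusted p = 0.00183) and lower with live NCFM (-0.48, adjusted p = 6.22e-05) than with the matching supernatant. CD55 was higher with live bacteria for every strain, by 0.59 in each case (adjusted p = 2.19e-05, 1.83e-05 and 2.49e-05 for NCFM, B. lactis 420 and Ls-33). C4BPB was higher with live B. lactis 420 (0.70, adjusted p = 0.000331) and live NCFM (0.37, adjusted p = 0.0329, lost when any array of the pair was left out). In all, 3 genes were called for NCFM, 5 for B. lactis 420 and 4 for Ls-33, beside 36.9%, 37.9% and 33% of all genes. The calls not yet named were for CD46, which was lower with live B. lactis 420 (-0.20) and live Ls-33 (-0.14). They were lost without the first live B. lactis 420 or second supernatant array (-0.15 and -0.16), and without either live Ls-33 or the second supernatant array (-0.18 to -0.068).

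Other complement genes were taken from a list of 50, of which 43 had a probe set and 13 were tested in the probiotic set and 12 in the E. coli set. With live NCFM 1 was higher and 5 lower, with live B. lactis 420 2 were higher and 3 lower, and with live Ls-33 2 were higher and 4 lower, where 35.3%, 35.3% and 38.7% of all genes were called. Their median changes were -0.23, -0.20 and 0.10. With supernatants of NCFM, B. lactis 420 and Ls-33 there were 1, 0 and 1 higher and 2 in each case lower, with medians of -0.07, -0.03 and -0.04, where 11.3%, 15.2% and 16.6% of all genes were called. E. coli supernatant gave 1 higher and 7 lower, where 36.3% of all genes were higher and 27.8% lower, and their median change was -0.44 against 0.05 over all genes. The 4 tested soluble regulators were C4BPA, SERPING1, CLU and CPN1. C4BPA, CLU and SERPING1 were lower with each of the 3 live strains and with E. coli supernatant, and CPN1 was called lower with live NCFM only. SERPING1 passed narrowly in limma with live B. lactis 420 (adjusted p = 0.0218) and live Ls-33 (adjusted p = 0.0428). CPN1 had a mean of 2.34 with live NCFM, under the minimum signal of 2.74, against 3.01 in 8 h medium. The live NCFM call for CPN1 was lost without the first medium or first NCFM array (-0.513 and -0.508, adjusted p up to 0.123), and that for SERPING1 without the second NCFM array (-0.52, adjusted p = 0.0538). CLU was also lower with each probiotic supernatant, by -0.17, -0.21 and -0.15 for NCFM, B. lactis 420 and Ls-33. Those calls were lost without either medium array, without the first NCFM (-0.13) or second B. lactis 420 (-0.145) supernatant array, and without either Ls-33 supernatant array (-0.17 and -0.14). SERPING1, the C1 inhibitor, fell by 0.81 with E. coli supernatant on the log2 scale, and CLU, or clusterin, by 0.45. Factor D (CFD), the protease that activates factor B, rose with all live bacteria. Its signal was 8.86 and 8.82 with live NCFM, 8.92 and 8.85 with live B. lactis 420 and 8.77 and 8.65 with live Ls-33, against 8.27 and 8.19 in 8 h medium. The changes were 0.62, 0.66 and 0.48 (adjusted p = 1.94e-05, 7.6e-06 and 0.00022). C1QBP, a receptor for C1q, rose with live B. lactis 420 (0.28) and live Ls-33 (0.30), and both calls were lost without the first medium array (0.20 and 0.22). C5AR1, the receptor for C5a, fell by 1.34 with E. coli supernatant, from a mean of 3.49 in 24 h medium to 2.15. The lower level lay under the minimum signal of 2.78 in that set, so the size of the fall is uncertain. None of the 6 terminal genes C6, C7, C8A, C8B, C8G and C9 reached the minimum signal.

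C3 and factor B are acute-phase proteins in the liver, so a list of 20 genes was counted beside them, of which 6 were tested in the probiotic set. The list was compiled as acute-phase genes, and whether each of them, such as A2M, is one in human cells was not tested. With live Ls-33 3 were higher and 2 lower, with B. lactis 420 2 were higher and 2 lower, and with NCFM 2 were higher and 2 lower. The medians were 0.89, 0.22 and -0.02 in that order, and 38.7%, 35.3% and 35.3% of all genes were called. FGB, the beta chain of fibrinogen, rose by 2.16 with live Ls-33, 1.01 with live B. lactis 420 and 0.55 with live NCFM, where another FGB probe set gave -0.11. FGG, the gamma chain, rose by 1.78 with live Ls-33 and 1.02 with live B. lactis 420. With live NCFM its mean was 8.27, also above the 7.97 of 8 h medium. SERPINA1, or alpha-1-antitrypsin, fell by 1.15, 1.22 and 1.07 with live NCFM, B. lactis 420 and Ls-33, and by 1.64 with E. coli supernatant. A2M fell by 0.64 and 0.73 with live NCFM and live B. lactis 420, and by 1.52 with E. coli supernatant. With the probiotic supernatants no gene of this list was higher, and 3, 3 and 5 were lower for NCFM, B. lactis 420 and Ls-33 (medians -0.27, -0.29 and -0.43). Over all genes 5.28%, 5.98% and 8.48% were higher and 5.98%, 9.2% and 8.14% lower with those supernatants. E. coli supernatant gave 2 of 8 tested genes higher and 4 lower (median -0.48), beside 36.3% and 27.8% of all genes. CP, or ceruloplasmin, fell by 2.06, from a mean of 4.84 in 24 h medium to 2.78. The lower level lay at the minimum signal of that set, so the size of the fall is uncertain.

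Of 18 tested genes for cytokines, receptors and transcription factors known to drive complement genes, 10 were higher and 2 lower with live Ls-33, 7 and 3 with live B. lactis 420, and 3 and 5 with live NCFM, with medians of 0.42, 0.18 and -0.11. Over all genes 19.4%, 18.3% and 16.8% were higher and 19.3%, 16.9% and 18.4% lower in those co-cultures. NFKB2, a subunit of NF-kappaB, rose by 1.51 with live Ls-33 and 1.38 with live B. lactis 420, and RELB by 1.06 with live B. lactis 420. RELB had a mean of 2.51 in 8 h medium, under the minimum signal of 2.74, and 3.57 with live B. lactis 420. IL1A, which encodes interleukin-1 alpha, rose by 1.13 with live NCFM. STAT3, which transmits signals of the IL-6 family, rose by 0.93 with live Ls-33. Its mean was also higher with live B. lactis 420, at 9.40, and was 8.80 with live NCFM, against 8.94 in 8 h medium. IFNGR2, a chain of the interferon-gamma receptor, fell by 1.11 with live NCFM. E. coli supernatant gave 13 higher and 1 lower (median 0.65), beside 36.3% and 27.8% of all genes, led by IRF1 (3.40), NFKB1 (3.13) and RELB (2.703). RELB again started under the minimum signal (2.78 in that set), at 2.35 in 24 h medium, and reached 5.05 with E. coli supernatant. CFB fell in those same cells. With supernatants of NCFM, B. lactis 420 and Ls-33, 0, 1 and 2 of these genes were higher and 0, 0 and 1 lower, with medians of 0.07, -0.01 and 0.04. The shares of all genes called with those supernatants were 11.3%, 15.2% and 16.6%.

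CD55 and CD59 are held on the membrane by a glycosylphosphatidylinositol (GPI) anchor, and 23 genes of its synthesis were tested. In co-cultures 3 were higher with each strain and 5, 7 and 6 lower for NCFM, B. lactis 420 and Ls-33, with medians of -0.05, -0.12 and -0.14. These are 8, 10 and 9 of 23 genes, near the 35.3%, 35.3% and 38.7% of all genes called. With their supernatants 1, 3 and 2 were higher and 2 in each case lower, with medians of -0.09, -0.09 and -0.07. The shares of all genes called there were 11.3%, 15.2% and 16.6%. E. coli supernatant gave 5 higher and 11 lower, with a median change of -0.25, where 64.1% of all genes were called. PIGZ, a mannosyltransferase of this route, fell by 1.23, 1.21 and 1.60 in the co-cultures of NCFM, B. lactis 420 and Ls-33 and by 2.60 with E. coli supernatant. PIGU, a subunit of the enzyme that attaches the anchor, fell by 0.85, 0.84 and 0.92 with the 3 probiotic supernatants and by 1.59 with E. coli supernatant. Other genes of the route rose. PIGW rose by 0.92 with live B. lactis 420 and 0.99 with live Ls-33, and PIGM by 1.14 with live B. lactis 420. With NCFM and B. lactis 420 supernatants PIGW rose by 0.54 and 0.64, and PIGL rose by 0.60 with Ls-33 supernatant.

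Across the 14 probiotic arrays, which share groups and controls, C3 followed CFB (r = 0.825) and CD55 (r = 0.776), and CFB followed CD55 less (r = 0.492). The genes whose pattern was most like that of C3 were FNBP1 (r = 0.990), SDC4 (r = 0.986) and PI3 (r = 0.983). Those most like CFB were PLSCR1 (r = 0.976), ICAM1 (r = 0.969) and LIMA1 (r = 0.963). For CD55 they were PDE12 (r = 0.978), TMTC3 (r = 0.969) and ARRDC3 (r = 0.966), and for C4BPB RAB37 (r = 0.941), RNF181 (r = 0.939) and KDM1A (r = 0.924). CD46 was most like PLB1 (r = 0.938), DPYSL2 (r = 0.933) and TRIM5 (r = 0.932). The closest matches of C5 and CD59 were SLC22A23 (r = 0.859) and SLC4A2 (r = 0.777).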

How the data were processed

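Arrays of type HG-U133 Plus 2.0 (Affymetrix) were labelled from 5 µg of RNA in the probiotic set and 1 µg in the E. coli set, per the labels' protocols. The authors' deposited values are log2 signals after RMA, per the submitters' processing notes. Its version is not given in the sources used here, nor is joint or separate normalization of the sets. Platform symbols were updated by Entrez identifier to RefSeq. A gene's probe set of highest mean signal represented it, without _x_at probe sets where others existed. Tests took the 11865 genes at or above the 40th percentile of mean signal in a fit.

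Groups came from the labels. The 14 and the 6 arrays were fitted separately by limma 3.58.1 (R 4.3.3; lmFit, eBayes with a trend), with Benjamini-Hochberg adjustment over all genes tested and calls under 0.05. Single probe sets were tested in a fit over all probe sets. Replicate numbers did not pair the probiotic arrays (correlations of same-numbered deviations -0.104 to 0.057). The fits were tested on simulated data. The 8 genes, the other lists and the tests were chosen with earlier results of these data known. Named were the 8 genes and, for likeness, up to the 3 highest correlations. Genes of the lists were drawn, per comparison, mainly from up to 4 called genes of the other complement lists and 3 of each other list by lowest adjusted p. Some of these were left out, and some values beyond them were added. C4BPA and CFD values by group were chosen after they were seen. Alternatives were other filters, no trend, only the groups compared, all 20 arrays, quantile normalization, every probe set, the replicate block and leaving out arrays.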

Additional observations from a re-analysis of the deposited data

Results flagged for a closer look

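For C3 the differences between strains were not the same for live bacteria as for supernatants, by the interaction of strain and format in limma (adjusted p = 7.22e-07). C3 was higher with Ls-33 than with NCFM by 4.002 as co-cultures and by 0.91 as supernatants on the log2 scale, and higher with B. lactis 420 than with NCFM by 3.19 and 0.22. CFB met the same test (adjusted p = 1.07e-09). It was higher with Ls-33 than with NCFM by 2.02 as co-cultures and 0.017 as supernatants, and higher with B. lactis 420 by 0.86 and 0.04. Co-cultures lasted 8 h and supernatant treatments 24 h, so format and time cannot be told apart.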

How the results depend on the processing

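Precision is limited by 2 or 3 arrays a group, and leaving out 1 of 2 assumes that the other varies like the remaining groups. Values for genes outside the 8, for pairs of co-cultures and for single probe sets were chosen after the data were seen. Of all alternatives for single values, 1752 kept direction and side of the threshold, 168 lost the call, 17 gained it and 17 reversed, all from uncalled values. Under quantile normalization the change of CD59 with E. coli supernatant became -0.015. Leaving out arrays gave, with live Ls-33, -0.016 to 0.052 for CD46 and -0.089 to 0.047 for CD59. It gave -0.31 to 0.19 for C3 with NCFM supernatant, -0.094 to 0.41 for C3 and -0.10 to 0.18 for CD55 with B. lactis 420 supernatant, -0.017 to 0.26 for CD59 with Ls-33 supernatant and -0.20 to 0.12 for C5 with E. coli supernatant. Between live bacteria and supernatant it gave -0.56 to 0.24 for C5 and -0.23 to 0.047 for CD59 with NCFM, and -0.65 to 0.059 for C5 with B. lactis 420.

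Of the 7 genes, quantile normalization called 5 with live B. lactis 420. With B. lactis 420 supernatant 2 were called by quantile normalization, in a fit of only the groups compared and with the replicate block. Without a trend 2 were called with Ls-33 supernatant. The F-test among co-cultures called 2 without a filter, and 3 without a trend, with quantile normalization and with every probe set. The cause was not tested. Without a trend the genes called were 756, 1121 and 1281 with supernatants of NCFM, B. lactis 420 and Ls-33, 942 and 0 in the F-tests among co-cultures and supernatants, and 146 in the interaction. With single arrays left out, genes called ranged from 3060 to 3648, 3160 to 3184 and 3407 to 3664 in co-cultures, 489 to 863, 789 to 1216 and 771 to 1248 with supernatants (NCFM, B. lactis 420, Ls-33) and 6724 to 7703 with E. coli. They ranged from 845 to 1565 among co-cultures, 3 to 9 among supernatants and 262 to 655 in the interaction. Members called then ranged from 2 to 3 with live B. lactis 420, 1 to 4 with Ls-33 supernatant and 2 to 4 among co-cultures. The replicate block also put C5 past the threshold with live NCFM (adjusted p = 0.0430) and live Ls-33 (adjusted p = 0.0421), and CD46 with B. lactis 420 supernatant (adjusted p = 0.0301).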
